A study of Homo sapiens with 8 samples.

Results

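The DNA damage checkpoint and the response to stalled replication forks are described here through the poly(A) sites of 38 genes, chosen by name. The set holds the kinases ATM and ATR and the factors that load ATR, the effector kinases with the CDC25 phosphatases, the chromatin mediators at breaks, the fork protection complex, replication protein A, the sliding clamp with its loader, 3 DNA polymerases and 4 genes that arrest the cycle or end the arrest. All 38 were found among the 19389 protein-coding genes of GENCODE release 44 on GRCh38, and 37 have an intron. Peaks were taken within the span of each gene and up to 4 kb past its 3′ end.

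Libraries for poly(A) 3′-sequencing came from Kelly, a MYCN-amplified human neuroblastoma line, and from Kelly E9R cells, which carry a point mutation at the cysteine of CDK12 that THZ531 binds. According to the methods, E9R arose from Kelly during months of culture in rising doses of E9, another CDK12 inhibitor, so it is a selected line and not an engineered one. The kit (QuantSeq 3′ REV) copies RNA from an oligo(dT) primer and reads from the tail inward. THZ531 binds CDK12 and its paralog CDK13, kinases of transcription, covalently and inhibits them. Per the labels, both lines received DMSO or 400 nM THZ531 for 6 h, with 2 libraries in each of 4 groups (8 libraries). The values analysed here are a single list of 153624 peaks called on the merged reads of treated and untreated cells, so no peak could be compared between THZ531 and DMSO or between the lines, and no value below has a replicate.

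Most transcripts are cleaved downstream of a poly(A) signal, usually AATAAA, and receive a poly(A) tail. A poly(A) site inside an intron ends the transcript early and cuts off the exons that follow. The U1 snRNP, better known for marking the 5′ splice site, keeps such intronic sites silent, and CDK12 is known for its role in the expression of long genes of the DNA damage response. In the checkpoint itself, ATM responds to double-strand breaks and ATR to single-stranded DNA coated by replication protein A. They act through CHEK2 and CHEK1 to hold back the CDC25 phosphatases and the cell cycle.

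The cells carried the marks of their lineage. All 9 adrenergic neuroblastoma markers (among them HAND2, GATA3 and MYCN) had a peak at an annotated transcript end, with the strongest at a pileup of 39 to 121. Of 8 markers of other cells, 2 had such a peak, COL1A1 at a pileup of 16 and EPCAM at 6. Pileup here is the number of reads over the summit of a peak after extension to 100 bp, recovered as a whole number from the deposited fold enrichment and −log10 p. It was at most 200 in the list, and 16 peaks were above 100. That ceiling is what counting a single read per position and strand would give, and under such counting pileup is compressed at strong sites and does not measure transcript abundance.

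The 38 genes held 406 retained peaks, with a pileup from 3 to 53. Of these, 55 lay at a terminal end, meaning 200 bp before to 600 bp after an annotated 3′ end of the gene, and 2 at an internal annotated end. A further 34 lay in the last exon before that window, 73 in internal exons, 227 in introns and 15 downstream of the gene. Intronic peaks made up 58.1% of the peaks inside these genes, against 68.1% over all protein-coding genes. Gene length and the presence of an end peak were not matched in these 2 shares. A peak at an annotated end was present in 36 of the 38 genes, against 64.5% of all protein-coding genes. The intronic peaks were weak. Their median pileup was 9, against 21 at terminal ends and in the last exon, and 13 of the 227 reached a pileup of 20. Over all protein-coding genes the order was the same, with medians of 8 in introns, 19 at terminal ends and 16 in the last exon.

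**Figure D1:**
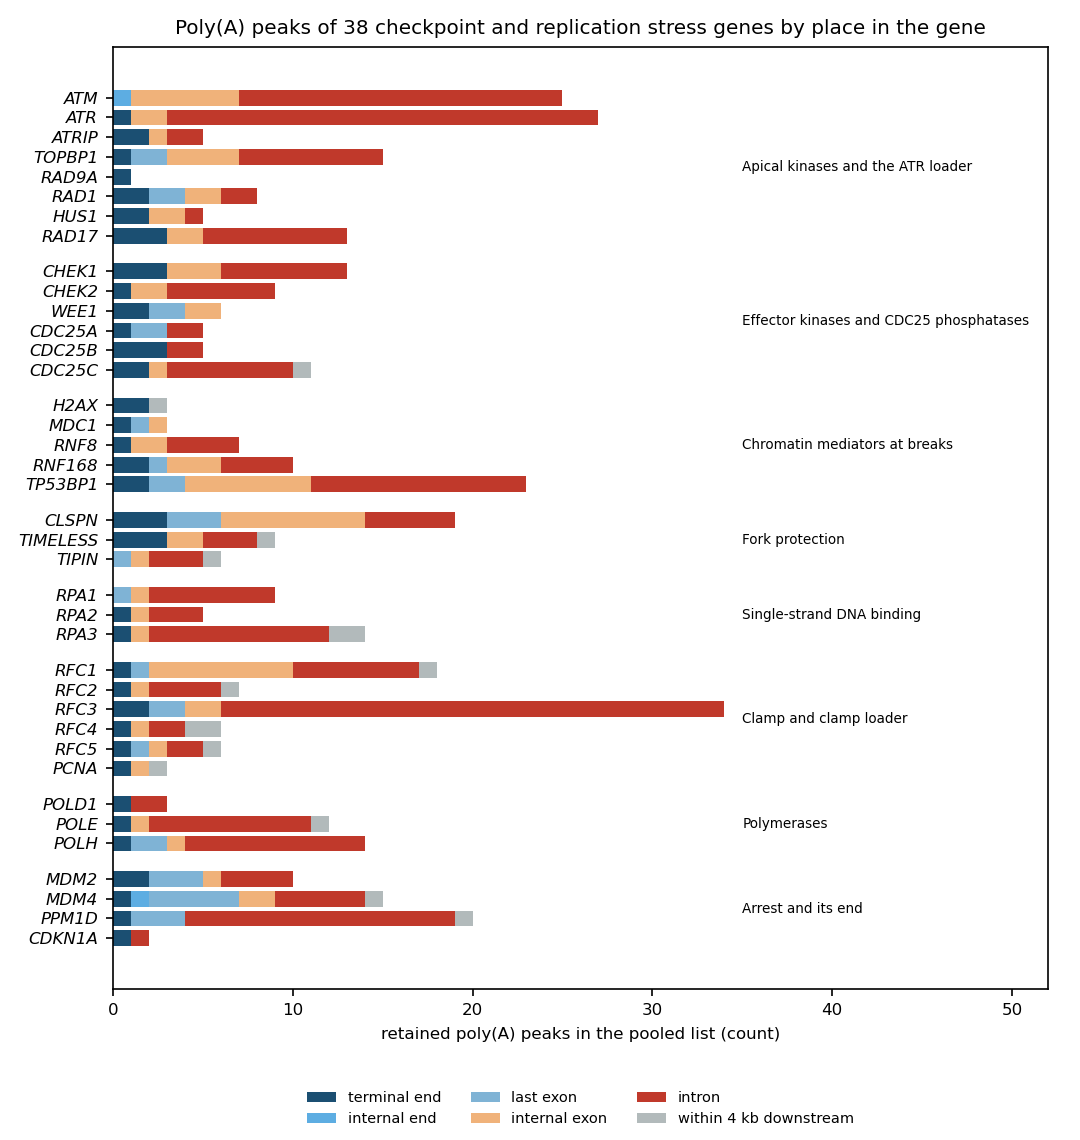
Number of retained poly(A) peaks in each of the 38 genes (horizontal axis, count) by place in the gene, with genes grouped by role. RFC3, ATR and ATM hold 28, 24 and 18 intronic peaks, while WEE1, MDC1, PCNA, RAD9A and the intronless H2AX hold none.

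Intronic sites with a poly(A) signal and without A-rich sequence, both defined here, are shown first. Whether transcripts of these genes end at them was not tested. A poly(A) signal was called when any of 12 hexamers started no more than 100 bp upstream of the peak's 3′ edge on the strand of the gene. The 12 are AATAAA with any base at the first position (NATAAA), at the second (ANTAAA) or at the fifth (AATANA), together with the forms AAGAAA and also AATGAA. A-rich sequence, on which the oligo(dT) primer can start inside a transcript, was 6 A in a row or 7 A of 10 in the 50 bp that follow. Of the 227 intronic peaks, 55 had a signal and no A-rich sequence, in 21 of the 38 genes. The strongest of them in 10 genes are printed 5′ to 3′ on the strand of the gene (GRCh38), from 10 bases before the signal to 20 bases after the peak, with the signal in capitals.
RPA1 intron 5 (chr17:1857334-1857425, forward strand, pileup 45): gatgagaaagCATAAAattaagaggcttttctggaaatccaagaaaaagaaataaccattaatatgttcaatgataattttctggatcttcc
CHEK1 beyond the canonical 3′ end (chr11:125671723-125671793, forward strand, pileup 27): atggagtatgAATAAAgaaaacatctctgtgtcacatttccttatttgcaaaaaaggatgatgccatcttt
POLH intron 4 (chr6:43591996-43592062, forward strand, pileup 26): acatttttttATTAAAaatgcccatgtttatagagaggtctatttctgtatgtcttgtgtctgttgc
CLSPN intron 8 (chr1:35759376-35759427, reverse strand, pileup 24): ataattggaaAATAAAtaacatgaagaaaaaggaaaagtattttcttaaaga
RAD1 intron 2 (chr5:34913846-34913898, reverse strand, pileup 22): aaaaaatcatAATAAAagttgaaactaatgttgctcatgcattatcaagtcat
PPM1D intron 1 (chr17:60609514-60609563, forward strand, pileup 20): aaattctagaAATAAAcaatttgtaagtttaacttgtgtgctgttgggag
HUS1 intron 5 (chr7:47971033-47971081, reverse strand, pileup 18): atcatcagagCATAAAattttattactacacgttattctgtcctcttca
TOPBP1 intron 10 (chr3:133649059-133649111, reverse strand, pileup 15): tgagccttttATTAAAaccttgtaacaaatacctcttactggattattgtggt
ATR intron 1 (chr3:142577536-142577584, reverse strand, pileup 10): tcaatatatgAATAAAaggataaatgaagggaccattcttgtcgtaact
ATM intron 56 (chr11:108336372-108336426, forward strand, pileup 9): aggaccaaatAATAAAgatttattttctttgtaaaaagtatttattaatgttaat
In 8 of these 10 sites the signal was AATAAA or ATTAAA. The A-rich call looks only after the peak, so the sites of CHEK1 and CLSPN passed although A-rich sequence runs across the 3′ edge of both peaks. When the window began 9 bp before the edge, 6 of the 55 sites were A-rich, and the other 49 still lay in 21 genes. A-rich sequence further inside a peak was not counted, and several of the printed sequences hold it, among them those of RPA1 and RAD1.

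The larger share of intronic peaks was followed by A-rich sequence. It stood after 159 of the 227 (70.0%, 95% Wilson interval 63.8 to 75.6%), and the matching window read on the other strand held it at 21.1%. Over all protein-coding genes the shares were 76.9% and 20.1%, so the share after the peak was lower in these genes. Both a signal and A-rich sequence were found at 75 of the 227 (33.0%). The 50 bases after the strongest peak followed by A-rich sequence are shown for 2 genes, with the A-rich part in capitals. The ATM peak had no signal, and the POLE peak had AATATA 36 bp upstream of its 3′ edge.
ATM after a peak in intron 26 (chr11:108286323-108286372, forward strand, pileup 19): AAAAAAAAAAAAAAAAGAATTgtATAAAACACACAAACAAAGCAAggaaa
POLE after a peak in intron 29 (chr12:132654192-132654241, reverse strand, pileup 22): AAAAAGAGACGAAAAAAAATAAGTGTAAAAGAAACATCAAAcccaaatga
Peaks of this kind cannot be told apart from priming within the transcript, and they are kept in the counts of intronic peaks below unless stated.

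A poly(A) signal was present at 130 of the 227 intronic peaks (57.3%, 95% Wilson interval 50.8 to 63.5%) and on the opposite strand at 30.8%. Over all protein-coding genes the shares were 54.3% and 36.2%. Signal without A-rich sequence was found at 24.2% of the members' intronic peaks (19.1 to 30.2%) and at 16.6% over all protein-coding genes. With the window from 9 bp before the edge the shares were 21.6% and 14.5%. The interval covers counting error only, and peaks of the same gene share its base composition. At terminal ends the order was the other way round. There, 78.2% of the members' peaks had a signal (65.6 to 87.1%), against 85.8% over all protein-coding genes, and 60% had a signal and no A-rich sequence, against 72.2%. The signal started 10 to 40 bp upstream of the peak's 3′ edge at 54.5% of terminal end peaks and 33.0% of intronic peaks of these genes, and on the opposite strand at 12.7% and 9.25%. Terminal end and intronic peaks thus differed more from each other than these genes differed from protein-coding genes as a whole.

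**Figure D2:**
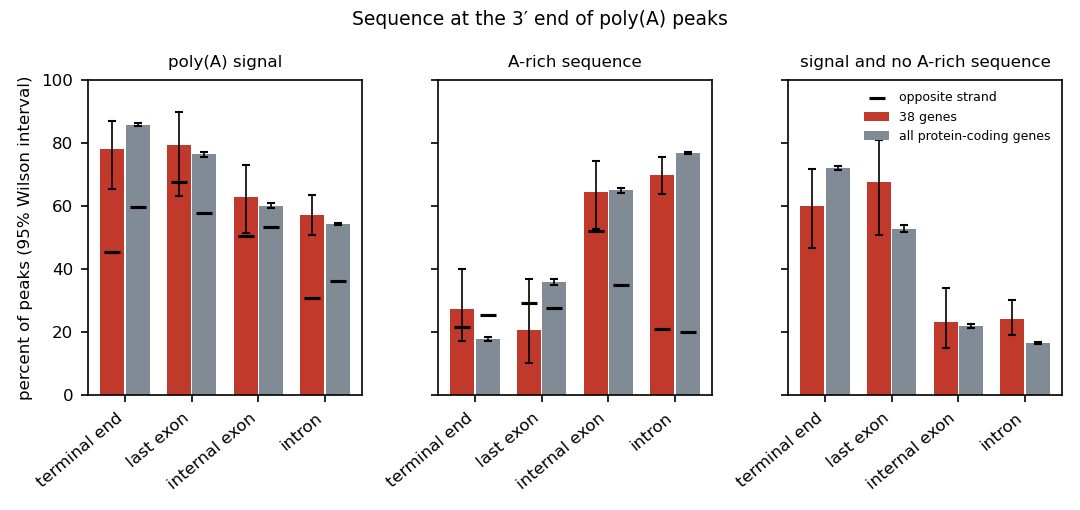
Percent of peaks with a poly(A) signal, with A-rich sequence, and with a signal and no A-rich sequence, by place in the gene, for the 38 genes and for all protein-coding genes. Bars carry 95% Wilson intervals and black dashes give the opposite strand. A-rich sequence followed 70.0% of the intronic and 27.3% of the terminal end peaks of the 38 genes, against 76.9% and 17.8% over all protein-coding genes.

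To determine how intronic peaks compare with those of genes of like length, each gene was set against the median of its length bin among 12233 protein-coding genes with an intron and a peak at an annotated end (20 bins). Of the 38 genes, 35 belong to this set. Without regard to length, an intronic peak was present in 31 of the 35, against 75.8% of the 12233 genes. Counts were above the bin median in 19, at it in 10 and below it in 6. Over the 12233 genes, 38.2% were above and 33.3% below. The median difference was 1 peak, against 0.

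The strength of the end peak was set beside this result. The strongest end peak of these genes had a median pileup of 28, against 22 over the 12233 genes, and its part in the counts of intronic peaks was not tested. Between the quartiles of the members' end peaks (20.8 and 38.2), 8 of 18 members were above the bin median (44.4%), against 44.7% of 4930 protein-coding genes. Below the first quartile they were 5 of 8, against 30.8%, and above the third 6 of 9, against 42.9%. With introns of the canonical transcript alone and bins of its span, 17 of 35 were above and 8 below, against 36.5% and 34.1% of all, and the median difference was 0. The comparison with genes of like length therefore differed between these subsets, and it has no test.

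**Figure D3:**
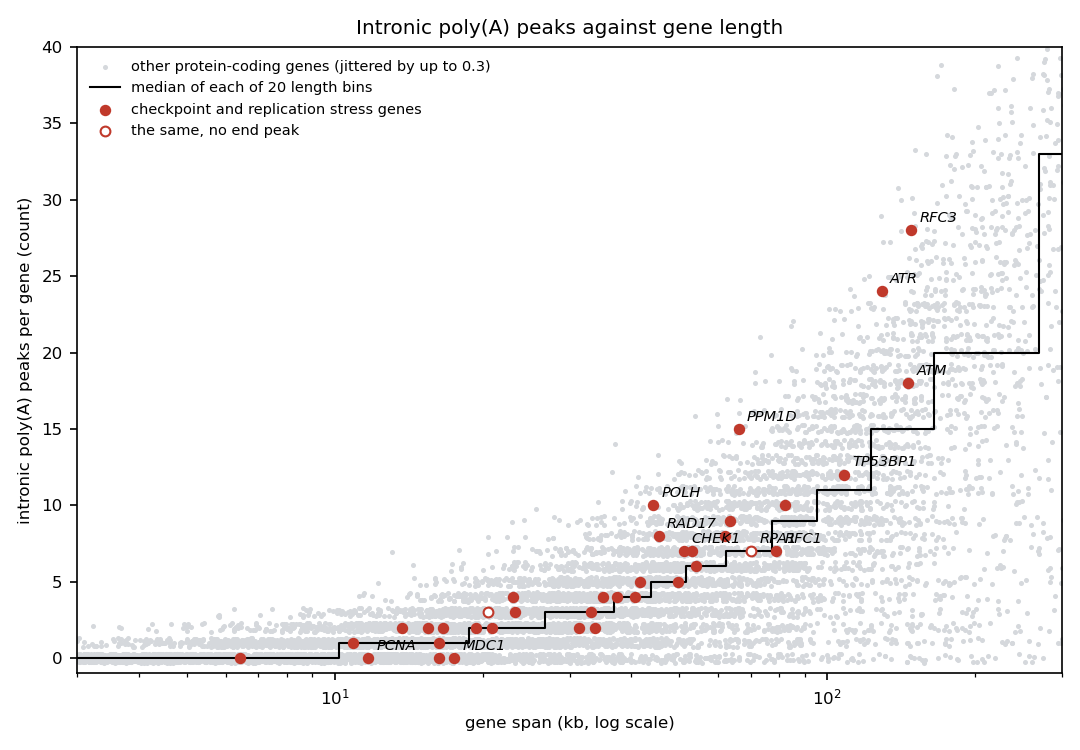
Intronic poly(A) peaks per gene (vertical axis, count) against gene span (horizontal axis, kb, log scale) for the 37 genes that have an intron and for other protein-coding genes. RFC3 with 28 peaks, ATR with 24, PPM1D with 15 and POLH with 10 lie above the black line of bin medians, which stands at 15, 15, 7 and 5 for them. Points of other genes are jittered by up to 0.3.

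ATM (chr11:108223067-108369102, forward strand), the kinase that responds to double-strand breaks, held 18 intronic peaks against a bin median of 15 (quartiles 9 and 19). Their pileup was low, from 3 to 19. No retained peak lay in its last exon or at its 3′ end. The single peak at an annotated end was internal, in intron 4 and 17 bp before the annotated position, with a pileup of 17, no signal and A-rich sequence after it. Of the 18 intronic peaks, 4 had a signal and no A-rich sequence, in introns 17, 18, 22 and 56 of 62. The strongest of the 4, in intron 56, lies after 2756 of 3056 codons. The 3′ part of the gene overlaps C11orf65 on the opposite strand, and 6 of the 18 peaks lie in both, the intron 56 site among them. Without peaks shared with such genes, ATM was 3 peaks below its bin median.

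ATR (chr3:142449235-142578733, reverse strand), which responds to single-stranded DNA, held 24 intronic peaks against a bin median of 15, which placed it at percentile 92.2 of its bin. With a −log10 q of 10 or more required (q is the adjusted p that MACS2 gave each peak), the difference was 3 instead of 9. A-rich sequence followed 22 of the 24, and AATAAA or another signal preceded 17. The other two, with AATAAA and no A-rich sequence, lay in intron 1, 1.18 and 1.47 kb from the gene start, after 19 of 2644 codons, with a pileup of 10 and 9. Counting only peaks of this kind, ATR stood at its bin median. Its 3′ end carried a single peak, 8 bp past the annotated end, with a pileup of 24.

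The loading factors of ATR spread over a wide range. RAD17, which loads the 9-1-1 clamp, had 8 intronic peaks against a bin median of 5. A signal preceded 1 of the 8 and A-rich sequence followed 7. In contrast, RAD1 of the 9-1-1 clamp had 2 intronic peaks, and the one in intron 2 had AATAAA, no A-rich sequence and a pileup of 22. The strongest peak at the 3′ end of RAD1 had a pileup of 21. HUS1, the second of the clamp subunits, had a single intronic peak, in intron 5 after 180 of 280 codons, with a pileup of 18 against 40 at its strongest end. RAD9A, the remaining subunit and only 6.42 kb long, had a single peak in all, at its end. TOPBP1, the activator of ATR, had 8 intronic peaks against a bin median of 6, of which 3 had ATTAAA and no A-rich sequence (introns 7, 10 and 14 of 27). ATRIP, the partner of ATR, had 2 intronic peaks, both followed by A-rich sequence, and an end peak with a pileup of 40, which also lies in SHISA5 on the opposite strand.

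Among the effector kinases, CHEK1 (chr11:125625163-125676255, forward strand) had 7 intronic peaks against a bin median of 5. Its MANE Select transcript ends after 32.0 kb, where a peak with a pileup of 21 lay 1 bp past the annotated end. An annotated transcript reaches 51.1 kb, and 3 of the 7 intronic peaks lie beyond the MANE end. The strongest, with AATAAA and a pileup of 27, lies 14626 bp past that end, inside ACRV1 on the opposite strand, so the gene it belongs to cannot be told apart here. CHEK2, the effector of ATM, had 6 intronic peaks, equal to its bin median. A-rich sequence followed all 6, and its end peak had a pileup of 31. WEE1, which holds CDK1 inactive, had no intronic peak against a bin median of 1, and its 4 peaks at the 3′ end had pileups from 12 to 21. Of the CDC25 phosphatases, CDC25A had 2 intronic peaks against a bin median of 3, CDC25B 2 against 2, and CDC25C 7 against 6.

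**Figure D4:**
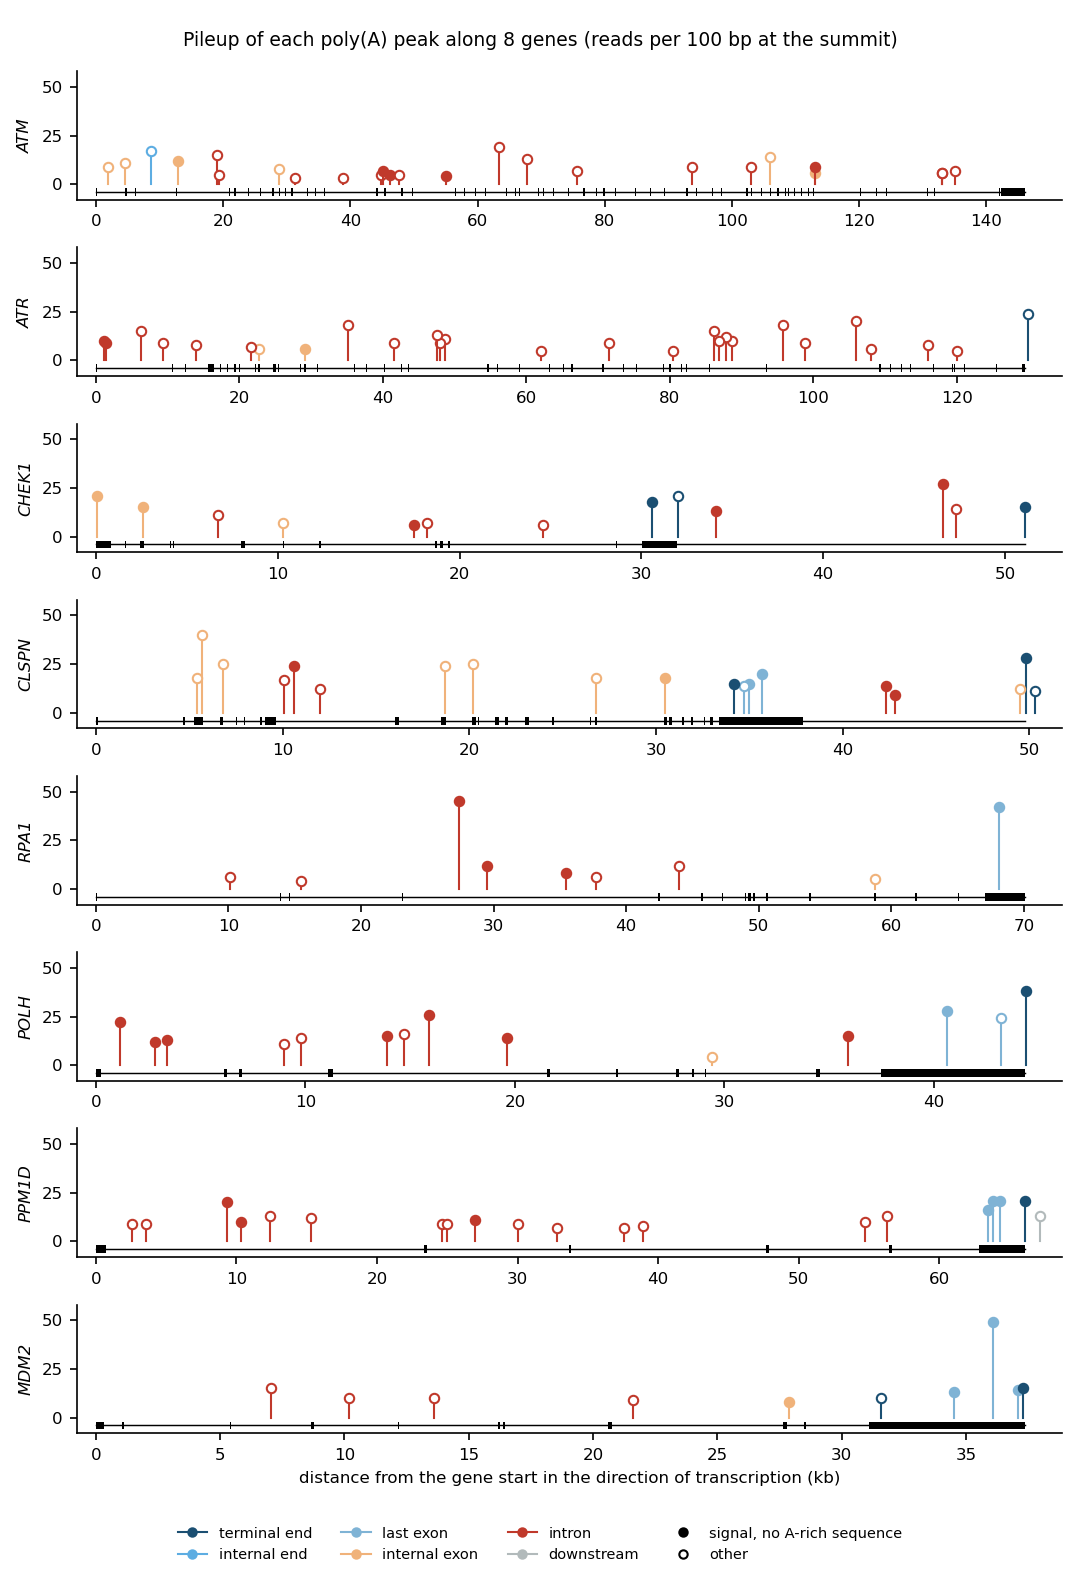
Pileup of each peak (vertical axes, reads per 100 bp at the summit) along 8 genes, by distance from the gene start (kb). Black boxes are exons of the canonical transcript, and filled circles are peaks with a signal and no A-rich sequence. ATM has no peak in its last exon, and in RPA1 the intronic peak of pileup 45 stands beside a last exon peak of 42.

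The chromatin mediators stood near genes of like length. TP53BP1, which channels breaks to end joining, had 12 intronic peaks against a bin median of 11, of which 4 had a signal and no A-rich sequence (introns 10, 15, 19 and 21 of 27). The ubiquitin ligases RNF8 and RNF168 had 4 each, against 4 and 3. MDC1, the scaffold that binds the phosphorylated histone, had none against 1. H2AX, the histone phosphorylated at breaks, has no intron. The end peaks of 5 members lie in a neighbour on the opposite strand, among them those of POLH, RAD9A, RFC4 and TP53BP1, in GTPBP2, PPP1CA, EIF4A2 and TUBGCP4. Since peaks carry no strand, the end peaks of these 5 genes cannot be told apart from those of their neighbours.

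In the fork protection group, CLSPN, the mediator between ATR and CHEK1, combined exonic and intronic peaks. It had 8 peaks in internal exons, the strongest with a pileup of 40 and A-rich sequence after it. Of its 5 intronic peaks, the one in intron 8 of 24 had AATAAA 22 bp before its 3′ end and a pileup of 24, against 28 at the strongest end, which belongs to a longer transcript and lies 11953 bp past the MANE end. TIMELESS had 3 intronic peaks, all in intron 1, with pileups of at most 9. TIPIN, its partner, was 1 of 2 members with no peak at an annotated end. Its strongest peak lay in the last exon, 523 bp before the annotated end, with a pileup of 39.

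The other member without an end peak was RPA1, the large subunit of replication protein A (chr17:1830005-1900082, forward strand). Its last exon held a peak with AATAAA and a pileup of 42, 1999 bp before the annotated end. Its intron 5 held a stronger one, after 120 of 616 codons, with a pileup of 45. It had CATAAA 62 bp upstream of the peak's 3′ edge and no A-rich sequence after the peak. A-rich sequence does lie further inside this peak, so it cannot be told apart from priming within the transcript. Its pileup was the highest of any intronic peak in the 38 genes. In the same intron lay 2 more sites with a signal and no A-rich sequence (pileups of 12 and 8). The total of 7 intronic peaks equalled the bin median. RPA2 had 3 intronic peaks, none above a pileup of 11, beside an end peak of 44. RPA3 had 10 against a bin median of 9, and all 10 lie within UMAD1 on the opposite strand. Its end peak, at a pileup of 53, was the highest among the 38 genes. The signals of the last exon or end peaks of these genes are printed as 30 bases each, on the strand of the gene with the hexamer in capitals, since RPA1, TIPIN and MDM2 (below) had their strongest 3′ peak before the annotated end.
RPA1 last exon (chr17:1898036-1898065, forward strand): tttgttttAATAAAcagtatattctttggt
TIPIN last exon (chr15:66336719-66336748, reverse strand): tatttcttCATAAAatgattaggaggtaat
MDM2 last exon (chr12:68844220-68844249, forward strand): gttgttaaAATAGAaattatttgaatatca
RPA3 end (chr7:7636718-7636747, reverse strand): attttattAATAAAaactaaaatggtacgt

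In the clamp loader, RFC3 had 28 intronic peaks against a bin median of 15, more than any other member. Its span of 148 kb comes from a second annotated transcript. The MANE Select transcript ends after 19.4 kb, and 5 of the 28 peaks lie in its introns. Set against genes of the canonical span, RFC3 was 3 peaks above the median instead of 13, and at a −log10 q of at least 10 it was 5 above. In bins of summed canonical intron length, all 28 peaks being kept, it was 26 above. The strongest of its intronic peaks, in intron 7 with a pileup of 35, had AATAAA and A-rich sequence after it, and the end peak had 28. The large subunit RFC1 had 7 intronic peaks against a bin median of 9, and 8 peaks in internal exons, each followed by A-rich sequence. RFC2, RFC4 and RFC5 had 4, 2 and 2 intronic peaks, against 2, 1 and 1, all followed by A-rich sequence. The clamp PCNA had none against 1. Sites with a signal and no A-rich sequence were found in RFC3 alone of these 6 genes. All 5 of them lay past the end of its MANE Select transcript.

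The polymerases were split. POLH, the translesion polymerase eta (chr6:43576185-43620523, forward strand), had 10 intronic peaks against a bin median of 5. At a −log10 q of at least 10 the difference was 1 instead of 5. Of the 10 peaks, 7 had a signal and no A-rich sequence, the largest number in any of the 38 genes. They lay in introns 1, 4 and 10 of 10, and the strongest in intron 4, after 163 of 713 codons, had a pileup of 26 against 38 at the end. POLE, the leading strand polymerase, had 9 against 7, of which 4 had a signal and no A-rich sequence. A further peak in its intron 32, with neither a signal nor A-rich sequence, reached a pileup of 29. POLD1 had 2 against 3, with AATAAA and no A-rich sequence at the one in intron 1, where the pileup of 11 compared with 16 at its end.

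Among the genes that arrest the cycle or end the arrest, PPM1D, the phosphatase that switches the checkpoint off (chr17:60600193-60666280, forward strand), had 15 intronic peaks against a bin median of 7, at percentile 97.3 of its bin. The difference of 8 fell to 1 at a −log10 q of at least 10, and to 2 for sites with a signal and no A-rich sequence. Of the 15, 12 were followed by A-rich sequence and 3 had a signal without it. The strongest of the 3 lay in intron 1, after 157 of 605 codons, with a pileup of 20 against 21 at the end of the gene. MDM2 and MDM4, a ubiquitin ligase and its partner, had 4 and 5 intronic peaks, both against 4. All 4 of MDM2 were followed by A-rich sequence. The strongest peak of MDM2 stood in its last exon, where a site 1281 bp before the annotated end had a pileup of 49, against 15 at the end. MDM4 had 5 peaks in the last exon, with pileups from 15 to 21, and 14 at its end. CDKN1A, an inhibitor of cyclin-dependent kinases, had a single intronic peak, with AATAAA in intron 1 before any codon and a pileup of 11, against 29 at the end.

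Intronic sites were next set against the end of the same gene. Length was not matched here, and its median was 37.4 kb for the 35 genes compared and 31.3 kb for the 12233. A site with a signal and no A-rich sequence was present in 20 of the 35 genes with an end peak and an intron, against 45.9% of the 12233 genes. In 9 of the 35 its pileup was at least 0.5 times that of the strongest end peak, against 26.2%, a share near this background. These were ATM (whose only end peak is internal), TOPBP1, RAD1, CHEK1, CLSPN, POLD1, POLH, MDM4 and PPM1D. TOPBP1 and MDM4 had stronger last exon peaks, of 42 and 21, and their intronic sites of 15 and 8 were below 0.5 times those. When last exon peaks were counted with the end, intronic sites exceeded the 3′ end in RPA1 (45 against 42), CHEK1 (27 against 21) and RAD1 (22 against 21). ATM had no terminal end or last exon peak, so its intronic site had none to be set against. The site counted for CHEK1 lies inside ACRV1, as given above, and may belong to either gene. That of ATM, in the 3′ part of the gene that overlaps C11orf65, has the same limit. The RPA1 and RAD1 peaks hold A-rich sequence further inside them, and at the CHEK1 and CLSPN peaks it runs across the 3′ edge. Where pileup is compressed at strong sites, these ratios are nearer to 1 than those of the reads.

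**Figure D5:**
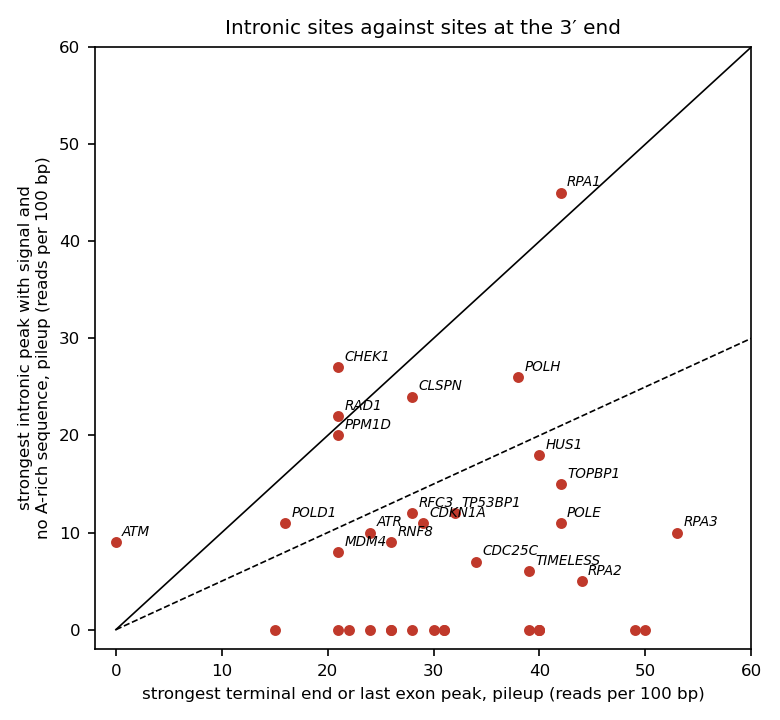
Strongest intronic peak with a signal and no A-rich sequence (vertical axis, pileup) against the strongest terminal end or last exon peak (horizontal axis, pileup) for the 37 genes with an intron, with 0 where there is none. The solid line marks equal pileup and the dashed line 0.5 times. RPA1, CHEK1, RAD1 and ATM lie above the solid line, ATM because it has no terminal end or last exon peak and is drawn at 0. The CHEK1 and ATM sites also lie in ACRV1 and C11orf65 on the opposite strand. The RPA1 and RAD1 peaks hold A-rich sequence inside them, and at the CHEK1 and CLSPN peaks it runs across the 3′ edge.

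Introns near the gene start were looked at separately. Of 194 peaks in introns of the canonical transcripts, 34 lay in the first intron (17.5%, 95% Wilson interval 12.8 to 23.5%), which makes up 13.4% of their intron sequence. Over all protein-coding genes, 27.1% of such peaks lay in the first intron, with 24.9% of intron sequence. Of the 46 sites with a signal and no A-rich sequence, 11 were in the first intron (23.9%), against 23.2% over all protein-coding genes.

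Of the 57 end peaks, 2 of them at internal annotated ends, 32 (56.1%) stopped within 50 bp of an annotated transcript end. The share was 67.1% for the end peaks of all protein-coding genes. Such a peak was present in 27 of the 36 members with an end peak (75%), against 83.6% of 12500 protein-coding genes with one. A last exon peak before the terminal window was found in 15 of the 36 (41.7%), against 37.7%. Among end and last exon peaks, the strongest was an end peak in 29 of the 36 (80.6%, ties counted as ends), against 86.1%. ATM is among the 27 and the 29 by its internal peak alone. Peaks within 4 kb downstream were found in 12 of the 36 (33.3%), against 26.6%, and over all members 7 of the 15 lay in another coding gene.

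Internal exons held 73 peaks in 31 of the 38 genes. Among genes with an end peak, the share with an internal exon peak was 80.6% of the 36 members and 38.5% of the 12500 protein-coding genes. Set against genes in the same length bins, it was 82.9% of 35 members against 43% on average. The number of exons and the strength of the end peak were not matched, and their part in this was not tested. A-rich sequence followed 47 of them (64.4%, 95% Wilson interval 52.9 to 74.4%), against 65.0% over all protein-coding genes, and on the opposite strand 52.1%. CLSPN and RFC1 had 8 each, TP53BP1 7 and ATM 6.

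Base composition and signal density of the 35 genes were set beside their length bins. GC content was below the bin median in 21 (60%), against 50% of all. The log2 ratio of U1 motifs (GGTAAG with the forms GGTGAG and also GTGAGT, and the last 2 can overlap each other) to AATAAA on the strand of the gene, with 1 added to both counts, was below the bin median in 22 (62.9%), against 49.4%. ATM and ATR had ratios of -1.17 and -1.13, against -0.43 in their bin, and PPM1D had -1.06 against -0.34. POLE, with 1.98 against -0.34, lay on the other side. These shares are descriptions of the gene sequence and have no test.

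A list of 30 other genes of the pathway was counted in the same way. A peak at an annotated end was present in 28, and 23 of these 28 had an intronic peak. Over all protein-coding genes the shares were 64.5% and 75.8%. Counts were above the bin median in 14 of the 28 (50%) and below it in 7, against 38.2% and 33.3% of the 12233 genes. SMARCAL1, a fork remodeller, had 11 intronic peaks against 7, POLE2 9 against 5, and DBF4, the activator of the replication kinase CDC7, 6 against 3. In contrast, the kinase PRKDC had 17 against 20, and the deubiquitinases USP7 and USP28 had 6 each against 9.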

How the data were processed

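The single deposited list was made by the authors, who trimmed reads with BBDuk, mapped them with STAR 2.5.1b to GRCh38 plus ERCC spike-ins, merged all libraries and called peaks with MACS2 2.1.1, extending reads to 100 bp. It holds, as the authors deposited them, a score, a fold enrichment (ratio of pileup to local background, 1 added to each), and the −log10 of the p-value and q-value. No peak has a strand, and depth per library is unknown. Handling of duplicate reads is not given in the sources used here. The study's methods give another dose for these lines than the labels. Pileup was recovered from the deposited fold and −log10 p and came out whole, within 0.001 of the −log10 p, in all 153624 peaks.

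Peaks were assigned to each member by GENCODE release 44 basic transcripts (at least 1 bp overlap, order: terminal end, internal end, exon, intron, downstream). Following the study's filter, peaks with a stretch of 25 A (at most 3 mismatches) after them and no signal were removed (17 in the 38 genes, all intronic). AATAAA was taken first where several signals were present. The members and the lists were chosen with earlier results of these data known. Genes described singly were the 5 furthest above and 5 furthest below their bin median (ties kept), those without an end peak, those with an intronic site of 0.5 times the end peak or more, the 5 strongest and 5 weakest ends, and 8 fixed names (ATM, ATR, CHEK1, CHEK2, WEE1, MDM2, MDM4, CDKN1A), with the other members given by role. Alternatives were the q threshold, the removal, the overlap, single-gene assignment, opposite-strand genes, the signals counted, the length comparison and the end window. Counting used Python 3.11.15, pandas 2.3.3 and pysam 0.24.0, tested on simulated peaks. Intervals cover counting error only. Values for some neighbouring, marker and pathway genes are not reported here.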

Additional observations from a re-analysis of the deposited data

How the results depend on the processing

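No paired analysis was possible because all libraries were merged before peak calling, and for the same reason no library could be left out. Of 85 values recomputed under the alternatives, 68 stayed within 1.5 times the reported count or within the interval of the reported share. Requiring a −log10 q of at least 10 left 48 intronic peaks, a median difference of 0 and 35.3% of peaks in introns. In that setting 15 of 32 genes were above the bin median and 4 below, against 31.6% and 20.2% of all. With signal-bearing intronic peaks only, there were 130, a median difference of 0 and 44.2% in introns. With a signal and no A-rich sequence there were 55 in 21 genes, a median difference of 0 and 25.1% in introns, and 17 of 35 genes above the bin median against 30.2% of all. The median difference was also 0 without peaks shared with opposite-strand coding genes. Requiring an overlap of 0.5 times the peak width gave 63% in introns. AATAAA and ATTAAA alone gave 34.4% of intronic peaks with a signal and 18.5% without A-rich sequence, and 25 A as the A-rich definition gave 55.1%. Chosen after seeing the data, canonical introns gave a median difference of 0, genes between the quartiles of the end peaks gave 8 of 18 above, and leaving out RFC3 moved none of 4 values past these limits. Differences from the bin median changed sign for RFC1 (from -2 to 1 at −log10 q of 10 and against all genes with an intron), ATM (from 3 to -2 with single-gene assignment and -3 without opposite-strand genes), RAD17 (from 3 to -2 with signal-bearing peaks and -1 without A-rich sequence) and POLD1 (from -1 to 1 without A-rich sequence); the cause was not tested.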
